A study of Homo sapiens with 18 samples.

Results

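The comparison described here is that of cells exposed to black phosphorus quantum dots (BPQDs) with untreated control cells, read from input RNA, the RNA that was sequenced without m6A immunoprecipitation. BPQDs are nanometre-sized particles of black phosphorus, a layered form of the element. The cells, labelled as the human lung adenocarcinoma line A549, were given 10 mg/L BPQDs for 24 h, or 100 mg/L titanium dioxide (TiO2) for 24 h, or were left untreated as the control. Each of these 3 groups had 3 input libraries, so 6 of the 18 libraries of the series enter the comparison and 9 enter the fit. A gene was included when its mean over the 9 input libraries was at least 1 FPKM (fragments per kilobase of transcript, scaled to the size of the library), which kept 12224 of 36576 genes. The files hold no read counts. Library depth is therefore unknown, and precision is judged from the replicates. The labels do not state that the 3 libraries of a group are separate cultures, and the p-values then reflect only differences among these libraries, possibly technical ones.

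The label of the cells was checked against genes with known levels in A549. CDKN2A, a cell cycle inhibitor gene that A549 has lost, had 19.3, 19.9 and 19.3 FPKM under BPQD, against 22.7, 22.4 and 27.4 FPKM in control cells, while the aldo-keto reductase AKR1B10, abundant in A549, reached at most 0.998 FPKM in any library. The data therefore go against the label in part, and the cells are called by their label without their identity being settled. Of 7 alveolar type II markers 6 were under 1 FPKM in all 9 libraries, as were 4 of 8 fibroblast, 5 of 6 leukocyte and 4 of 5 endothelial markers. The summed level of 9 epithelial markers was 865 to 886 FPKM under BPQD and 1175 to 1263 FPKM in control cells, and that of the fibroblast markers was 13.1 to 24.2 FPKM under BPQD and 28.2 to 28.9 FPKM in control cells. The summed endothelial markers reached 1.22 to 1.38 FPKM under BPQD and 3.03 to 3.73 FPKM in control cells. The leukocyte sums overlapped, at 11.8 to 12.9 FPKM under BPQD and 11.1 to 13.2 FPKM in control cells. Each sum rested on few genes. CDH5 of the endothelial set averaged 1.19 FPKM under BPQD and 3.12 FPKM in control cells, and CD68 of the leukocyte set 11.96 and 11.65 FPKM. LUM of the fibroblast set averaged 13.9 FPKM under BPQD and 20.5 FPKM in control cells. KRT7, KRT8 and KRT18 made up most of the epithelial sum, while EPCAM averaged 2.68 FPKM under BPQD and 2.19 FPKM in control cells. The sums are therefore not read as shares of cell types. In bulk RNA, fewer cells of a type and less RNA per cell cannot be told apart, here or in any result given for this comparison.

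Black phosphorus is oxidised in water and breaks down to phosphate and related anions, and nanoparticles of this kind are taken up by cells mainly through endocytosis. The amount of an mRNA in a cell reflects its synthesis in the nucleus, where introns are removed and the transcript is packed by RNA-binding proteins, its export through nuclear pores, and its decay. Many housekeeping genes, such as those of ribosomal proteins, are short and expressed at high levels, whereas many regulators of mitosis, chromatin and nuclear transport are encoded by long genes with many introns.

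A gene was called when its Benjamini-Hochberg adjusted p from limma, over all 12224 genes, was under 0.05. Of the genes tested, 44% were called, 20.6% higher under BPQD and 23.4% lower, and the 3 BPQD values lay entirely above or below the 3 control values in 55.6% of genes. These shares are the background against which the counts of gene groups below stand. The 55.6% is also the background wherever single genes are said to have separate groups against control. The gene lists were chosen with earlier results of these data known. Their counts therefore describe the lists and are not a test of them. Fold changes are on the log2(FPKM + 1) scale, BPQD over control, and are given ± SE; levels are in FPKM. Rescaling each library to a common total moved the share of rises among called genes to 58.3%, against 46.9% as deposited, so the balance between rises and falls is not read as a result.

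The changes were many and small. The median absolute log2 fold change of called genes was 0.27, 88.7% of them changed by less than 0.5, and the middle 90% of all genes lay between -0.47 and 0.41. The median coefficient of variation between replicates was 5.42% under BPQD and 5.25% in control cells. For genes of at least 100 FPKM it was 1.89% under BPQD and 1.77% in control cells, and for genes under 5 FPKM it was 8.02% under BPQD and 7.70% in control cells. Changes of at least 0.5 were called in 227 genes upward and 380 downward, and changes of at least 1 in 36 upward and 27 downward.

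**Figure D1:**
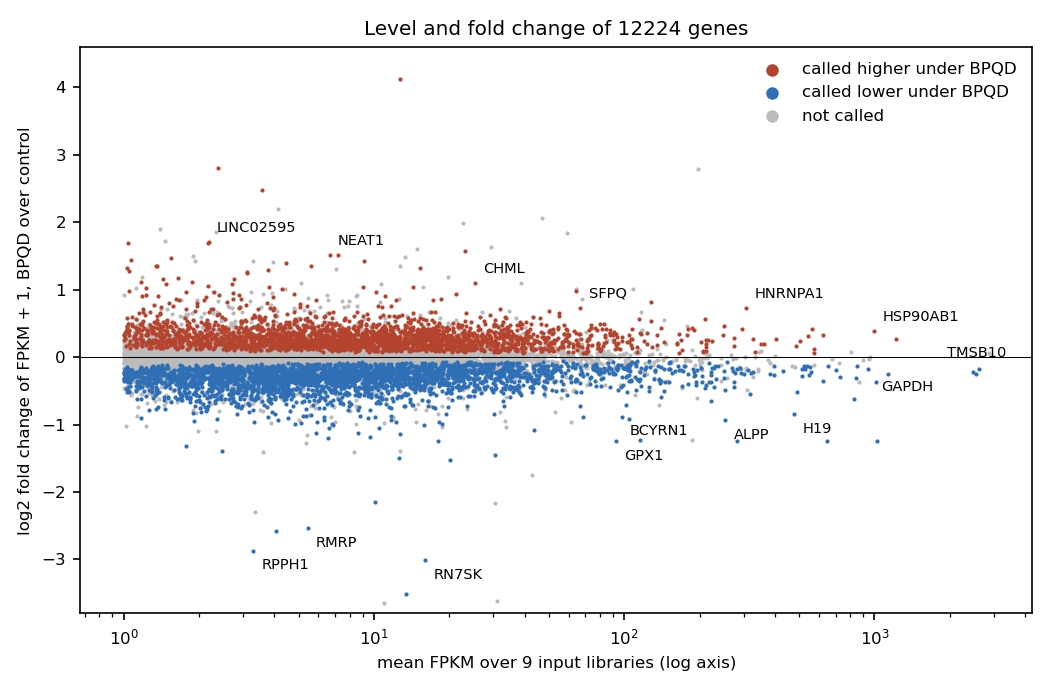
Each point is 1 of 12224 genes, with its mean level over 9 input libraries in FPKM on the x axis (log scale) and its log2 fold change of FPKM + 1, BPQD over control, on the y axis. Red genes were called higher under BPQD, blue genes lower and grey genes were not called; RN7SK, RMRP and RPPH1 lie lowest among the named genes, and TMSB10 and GAPDH at the far right lie a little below 0.

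The 3 tested alkaline phosphatases were all called lower under BPQD. These enzymes release inorganic phosphate from phosphomonoesters at the outer cell surface. ALPP, the placental enzyme that many carcinoma lines express, had 173, 175 and 177 FPKM under BPQD, against 334, 334 and 336 FPKM in control cells. The groups are far apart and each is tight, and the gene fell by 0.93 ± 0.02 on the log2 scale (adjusted p = 1.49e-07). ALPG, the germ cell enzyme, had 10.2, 12.6 and 10.3 FPKM under BPQD, against 26.7, 26.8 and 28.2 FPKM in control cells, a fall of 1.24 ± 0.08 (adjusted p = 3.11e-05). ALPI, the intestinal enzyme, had 1.13, 0.943 and 1.26 FPKM under BPQD, against 3.13, 3.03 and 3.07 FPKM in control cells, and fell by 0.95 ± 0.11 (adjusted p = 0.000436). ALPP, ALPG and ALPI are close copies in 1 cluster on chromosome 2, and reads of near-identical copies can be split between them, so the levels of ALPG and ALPI are uncertain beside the much higher ALPP.

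The promoters of these 3 genes are shown because the genes changed together and the sequences are related. They run from 250 bases before to 50 bases after the gene start in RefSeq (GRCh38.p14, plus strand), at chr2:232378501-232378800 for ALPP, chr2:232406594-232406893 for ALPG and chr2:232455903-232456202 for ALPI, and capitals mark the letters ATTTAAA.
ALPP: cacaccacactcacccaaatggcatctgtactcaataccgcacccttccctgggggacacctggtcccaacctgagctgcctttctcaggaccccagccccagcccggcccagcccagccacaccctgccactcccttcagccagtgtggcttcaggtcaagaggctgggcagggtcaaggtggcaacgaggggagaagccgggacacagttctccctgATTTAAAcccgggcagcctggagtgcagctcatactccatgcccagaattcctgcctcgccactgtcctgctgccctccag
ALPG: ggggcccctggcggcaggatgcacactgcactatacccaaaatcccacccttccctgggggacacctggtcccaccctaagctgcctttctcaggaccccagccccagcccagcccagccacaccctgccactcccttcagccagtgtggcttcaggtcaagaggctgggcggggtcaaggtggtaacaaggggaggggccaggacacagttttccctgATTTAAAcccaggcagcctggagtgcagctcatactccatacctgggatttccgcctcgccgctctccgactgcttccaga
ALPI: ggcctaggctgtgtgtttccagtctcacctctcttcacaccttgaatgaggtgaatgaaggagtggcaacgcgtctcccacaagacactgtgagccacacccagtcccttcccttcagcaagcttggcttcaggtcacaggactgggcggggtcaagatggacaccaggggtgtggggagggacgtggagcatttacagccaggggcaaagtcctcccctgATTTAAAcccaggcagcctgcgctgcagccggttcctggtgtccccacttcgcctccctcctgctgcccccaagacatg
The ALPP and ALPG promoters were identical at 82.7% of aligned positions, against 59.8% for ALPP and ALPI and 58.4% for ALPG and ALPI. ATTTAAA begins 31 bases before the start in ALPP and ALPG and 29 bases before it in ALPI. On either strand, 5.65% of 27305 promoters of this length hold it, and 3.01% of the 8843 promoters of tested genes. The match is a description of the letters and not a site.

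Of the 16 tested genes of alkaline phosphatases and phosphate handling, 2 were called higher and 8 lower, with a median log2 fold change of -0.24 where that of all genes was -0.012. LHPP, a phosphohistidine phosphatase, had 1.08, 1.13 and 1.26 FPKM under BPQD, against 2.06, 2.10 and 2.13 FPKM in control cells, and fell by 0.52 ± 0.05 (adjusted p = 0.000175). The phosphate importer SLC20A1 averaged 21.4 ± 0.880 FPKM under BPQD and 20.3 ± 0.847 FPKM in control cells, and the phosphate exporter XPR1 averaged 2.97 ± 0.0832 FPKM under BPQD and 3.44 ± 1.0 FPKM in control cells (SD, n = 3 each). Neither transporter was called (adjusted p = 0.225 and 0.437). The count higher was 1 without BPQD replicate 1 or 2 or control replicate 2 or 3.

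Among the called genes that gained most in FPKM were chaperone and translation factor genes. HSP90AB1, the constitutive cytosolic HSP90 chaperone, gained most, with 1121 FPKM in each of the 3 BPQD libraries, against 859, 865 and 856 FPKM in control cells, and rose by 0.38 ± 0.01 (adjusted p = 2.07e-06). Its inducible relative HSP90AA1 had 550, 547 and 540 FPKM under BPQD, against 443, 438 and 438 FPKM in control cells (0.31 ± 0.04). The mitochondrial chaperonin HSPD1 had 332, 335 and 324 FPKM under BPQD, against 245, 248 and 248 FPKM in control cells (0.42 ± 0.02). The 3 chaperone genes, picked for their gains, had no overlap between groups, like 55.6% of all genes. The elongation factor EEF1A1 averaged 1298 FPKM under BPQD and 1079 FPKM in control cells, and its processed copy EEF1A1P5, which can share its reads, had 534 to 543 FPKM under BPQD and 451 to 462 FPKM in control cells. NPM1, a nucleolar protein of ribosome assembly, had 611, 640 and 598 FPKM under BPQD, against 421, 462 and 496 FPKM in control cells (0.42 ± 0.06, adjusted p = 0.000648).

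The 2 largest falls in FPKM among called genes were in IDs without a symbol on chromosome 21. ENSG00000281181 had 684, 692 and 683 FPKM under BPQD, against 1650, 1603 and 1637 FPKM in control cells. ENSG00000280614 had 435, 429 and 425 FPKM under BPQD, against 996, 1031 and 1017 FPKM in control cells. Both were low in all 3 BPQD libraries. Another called ID without a symbol, ENSG00000280800, had a log2 fold change of -1.25. That of ENSG00000281181 was -1.25 and that of ENSG00000280614 was -1.24. What these IDs encode was not examined, so their falls are not read as those of known genes. Among genes with a symbol, the actin monomer-binding gene TMSB10 had 2313, 2344 and 2378 FPKM under BPQD, against 2818, 2738 and 2798 FPKM in control cells, and fell by 0.25 ± 0.02. The glycolytic gene GAPDH had 2278, 2247 and 2289 FPKM under BPQD, against 2642, 2648 and 2638 FPKM in control cells, and fell by 0.22 ± 0.01. The ferritin light chain gene FTL had 2304, 2290 and 2271 FPKM under BPQD, against 2593, 2595 and 2552 FPKM in control cells, and fell by 0.17 ± 0.02. The changes of TMSB10, GAPDH and FTL are small on a log scale but come in genes whose replicates hardly vary; with quantile normalization the falls of TMSB10 and FTL were no longer called (log2 fold change -0.05 for TMSB10 and 0 to 2 decimals for FTL). The imprinted noncoding RNA H19 had 305, 384 and 387 FPKM under BPQD, against 637, 640 and 646 FPKM in control cells, a fall of 0.85 ± 0.08 (adjusted p = 0.00016). Of the 308 genes of at least 100 FPKM, 20.5% were called higher and 45.1% lower, and the 100 most abundant genes held 24.8% ± 0.0478 of the summed FPKM under BPQD and 26.6% ± 0.349 in control cells (SD, n = 3 each).

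Genes with large fold changes and tight replicates stood apart from genes whose value swung between libraries. CHML, an escort protein that presents RAB GTPases for prenylation, had 39.7, 39.8 and 39.7 FPKM under BPQD, against 18.5, 17.1 and 18.6 FPKM in control cells, and rose by 1.10 ± 0.03 (adjusted p = 1.97e-06). CHML lies within OPN3 on the same strand, so their reads may be shared. The noncoding RNA CASC19 had 14.2, 14.2 and 12.7 FPKM under BPQD, against 4.29, 3.62 and 4.56 FPKM in control cells (1.51 ± 0.25). The intergenic RNA LINC02595 had 5.04, 5.15 and 4.88 FPKM under BPQD, against 1.01, 0.768 and 0.760 FPKM in control cells (1.71 ± 0.09). These 3 genes had no overlap between groups, like 55.6% of all genes. The rule for the largest rises, which CHML and CASC19 met, required it. TIMM10B, a chaperone of the mitochondrial intermembrane space, had 14.8, 14.5 and 13.8 FPKM under BPQD, against 5.12, 9.87 and 6.37 FPKM in control cells (0.96 ± 0.24).

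Downward, PTGS1, the constitutive cyclooxygenase, had 3.97, 4.19 and 4.10 FPKM under BPQD, against 10.6, 11 and 10.4 FPKM in control cells, and fell by 1.20 ± 0.03 (adjusted p = 1.22e-06). The ferritin receptor SCARA5 had 6.19, 5.80 and 6.11 FPKM under BPQD, against 14.8, 15.0 and 15.1 FPKM in control cells, a fall of 1.18 ± 0.03. CLIC3, a chloride intracellular channel family member, had 5.34, 6.10 and 4.65 FPKM under BPQD, against 12.5, 12.6 and 13.2 FPKM in control cells, a fall of 1.12 ± 0.08. These genes were low in all 3 BPQD libraries, which the rule for the largest falls required. PXDC1 had 4.69, 6.23 and 5.26 FPKM under BPQD, against 17.4, 17.1 and 16.4 FPKM in control cells (-1.50 ± 0.34). ABHD14B, which overlaps 3 other tested genes, had 3.48, 3.79 and 3.46 FPKM under BPQD, against 19.1, 20.2 and 18.4 FPKM in control cells (-2.15 ± 0.53). AK1, an adenylate kinase, had 7.67, 11.4 and 6.08 FPKM under BPQD, against 19.6, 19.6 and 18.5 FPKM in control cells (-1.15 ± 0.28).

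In 1 of the largest changes the values of overlapping genes traded places between libraries. The read-through locus RPL36A-HNRNPH2 had 39.8, 38.1 and 2.34 FPKM under BPQD and was listed at 0 in all 3 control libraries. HNRNPH2, which lies within it on the same strand, had 7.02, 6.08 and 75.6 FPKM under BPQD, against 53.3, 54.0 and 54.5 FPKM in control cells. HNRNPH2 was low in the 2 BPQD libraries in which the read-through locus was high and high in the other, so the level of either alone is uncertain, and HNRNPH2 was not called (adjusted p = 0.212). The call of the read-through locus was lost without BPQD replicate 1 or 2, any control library or TiO2 replicate 1 (adjusted p = 0.118 at most). The read-through locus SENP3-EIF4A1 had 18.3, 41.0 and 69.3 FPKM under BPQD, against 13.1, 12.8 and 10.0 FPKM in control cells, and lost its call without BPQD replicate 2 or control replicate 3 (adjusted p = 0.0625 at most). Of the 63 called genes with an absolute log2 fold change of 1 or more, 34 overlapped another tested gene, against 32.6% of all genes tested.

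The calls of 7 further large changes did not hold when single libraries were left out. The actin-binding adhesion gene LASP1 had 17.1, 17.7 and 16.0 FPKM under BPQD, against 70.8, 67.5 and 23 FPKM in control cells. It fell by 1.45 ± 0.38 on the log2 scale, and its log2 fold change was -1.18 without control replicate 1 and -1.21 without control replicate 2 and was then no longer called. TAX1BP3 lost its call without BPQD replicate 1 or 3 or any control library (-1.56 to -1.30). ELOA, an elongin subunit, lost its call without any BPQD library or without control replicate 1 or 3 (0.89 to 1.06). CHD2, a chromatin remodeller, lost its call without BPQD replicate 1 or 3 or control replicate 1 or 2 (0.75 to 0.92). HNRNPA1P7, a processed copy of HNRNPA1, lost its call without BPQD replicate 1 or 3 or control replicate 2 or 3 (1.08 to 1.24). The small Cajal body RNA SCARNA12 lost its call without any BPQD or TiO2 library or without control replicate 1 or 2 (1.05 to 1.54). GPX1 is described with the selenoproteins.

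**Figure D2:**
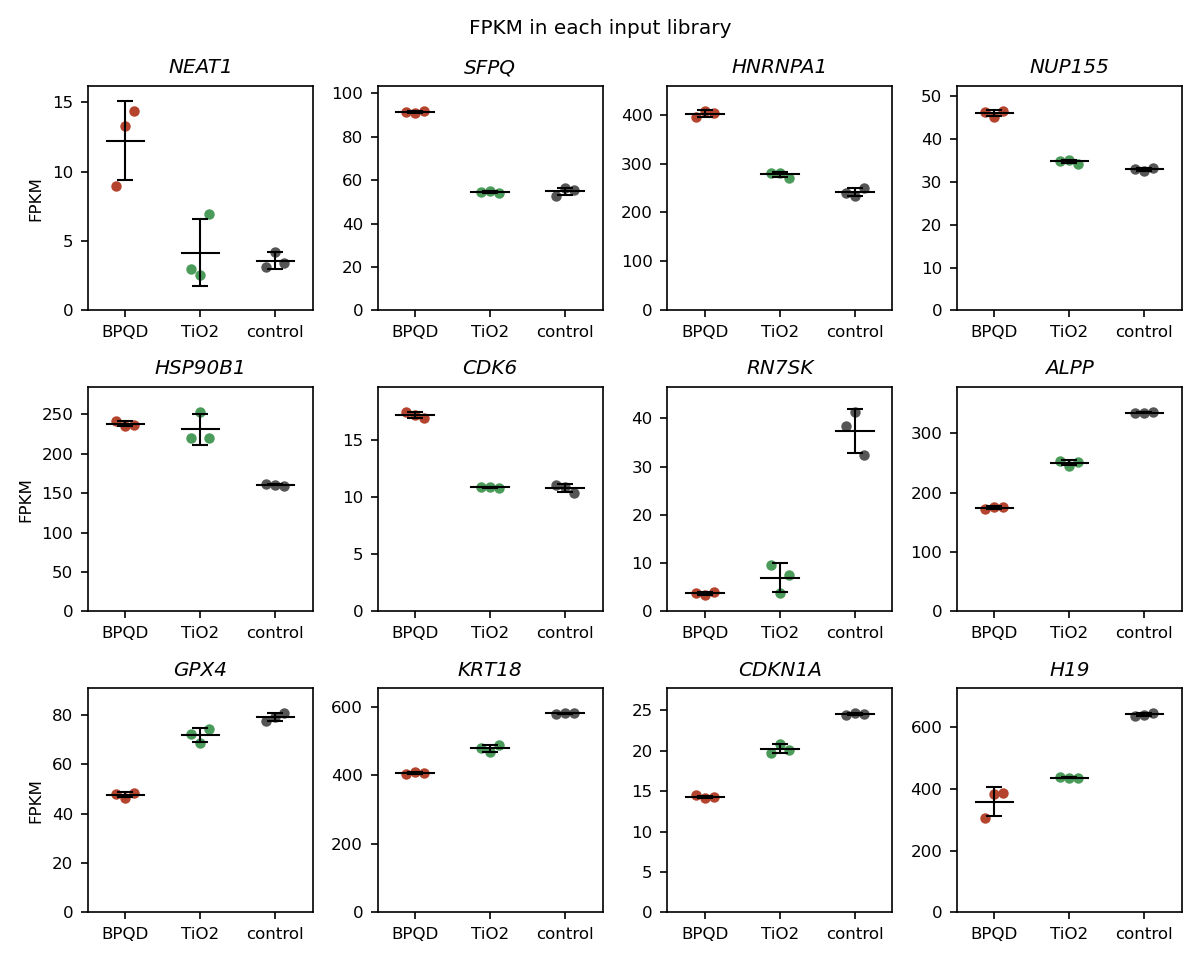
FPKM of 12 genes in each input library, with BPQD, TiO2 and control from left to right; points are libraries, the long bar is the mean and the error bar the SD of 3 libraries, and each y axis starts at 0. The BPQD points of NEAT1, SFPQ, HNRNPA1, NUP155, HSP90B1 and CDK6 lie above those of the control, and those of RN7SK, ALPP, GPX4, KRT18, CDKN1A and H19 lie below.

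Genes that handle RNA in the nucleus were called higher under BPQD far more often than lower, although single members moved by little. Of 42 tested nucleoporins and nuclear transport receptors, 31 were called higher and 0 lower, against 20.6% and 23.4% of all genes, with a median log2 fold change of 0.28, and 1 was called lower without BPQD replicate 3 or TiO2 replicate 2. NUP155, a scaffold nucleoporin, had 46.3, 45.2 and 46.5 FPKM under BPQD, against 32.9, 32.5 and 33.2 FPKM in control cells (0.47 ± 0.02, adjusted p = 6.18e-06). NDC1, which anchors the pore in the membrane, had 35.4, 35.7 and 35.8 FPKM under BPQD, against 25.3, 25.8 and 25.9 FPKM in control cells (0.46 ± 0.03). CSE1L, which returns importin alpha to the cytoplasm, had 157, 157 and 155 FPKM under BPQD, against 117, 115 and 116 FPKM in control cells (0.43 ± 0.02). The groups of these genes were fully separate. The 42 members have a median gene span of 65.2 kb, against 31.7 kb for all protein-coding genes; the part of gene span in this count was not tested.

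Of 26 tested hnRNP genes, which encode proteins that coat nascent transcripts and steer splicing, 16 were called higher and 0 lower, with a median of 0.21, and 1 was called lower without BPQD replicate 3. HNRNPA1 had 394, 407 and 404 FPKM under BPQD, against 241, 235 and 250 FPKM in control cells, and rose by 0.73 ± 0.03 (adjusted p = 3.47e-06). HNRNPA1 has many processed copies in the genome that can share its reads. HNRNPH3 had 65.3, 65.9 and 66.7 FPKM under BPQD, against 42.8, 42.8 and 43.3 FPKM in control cells (0.61 ± 0.02), and the splicing regulator PTBP2 had 4.53, 4.50 and 4.69 FPKM under BPQD, against 2.60, 2.63 and 2.63 FPKM in control cells (0.62 ± 0.03). SYNCRIP had 44.6, 44.4 and 45.0 FPKM under BPQD, against 33.9, 26.4 and 32.8 FPKM in control cells (0.52 ± 0.08). The SR proteins and CLK kinases, another class of splicing regulators, gave 6 calls higher and 0 lower among 22, with a median of 0.08 that is closer to that of all genes, and 1 was called lower without BPQD replicate 1 or 3. SRSF2 had 35.6, 25.1 and 33.8 FPKM under BPQD, against 21.0, 21.8 and 21.1 FPKM in control cells (0.53 ± 0.11).

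Paraspeckles are nuclear bodies built on the long noncoding RNA NEAT1. NEAT1 had 9.0, 13.3 and 14.4 FPKM under BPQD, against 3.12, 4.25 and 3.43 FPKM in control cells, and rose by 1.51 ± 0.31 (adjusted p = 0.00559). Its protein partner PSPC1 had 18.1, 17.3 and 16.7 FPKM under BPQD, against 9.23, 9.14 and 9.16 FPKM in control cells (0.85 ± 0.05), and SFPQ had 91.2, 90.9 and 91.9 FPKM under BPQD, against 52.9, 56.2 and 55.4 FPKM in control cells (0.73 ± 0.02). All 3 had separate groups, NEAT1 with the wider spread. The other core partner NONO had 71.8, 71.0 and 84.6 FPKM under BPQD, against 117, 70.0 and 75.3 FPKM in control cells, and was not called (adjusted p = 0.61). MALAT1, the neighbour of NEAT1 on chromosome 11, had 69.6, 171 and 71.0 FPKM under BPQD, against 51.5, 50.8 and 52.1 FPKM in control cells; every BPQD value was the higher, but the second BPQD library stood far above the others and the gene was not called (0.87 ± 0.31, adjusted p = 0.0555). Of the 10 tested members of this list 5 were called higher and 0 lower.

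RNA helicases and RNA surveillance factors moved the same way. Of 51 DEAD and DEAH box helicases, 28 were called higher and 1 lower, with a median of 0.14. DDX21, a nucleolar helicase of ribosomal RNA transcription and processing, had 133, 136 and 137 FPKM under BPQD, against 91.8, 91.1 and 89.9 FPKM in control cells (0.57 ± 0.02). DDX18 had 28.9, 28.3 and 28.6 FPKM under BPQD, against 19.1, 19.8 and 20.1 FPKM in control cells (0.52 ± 0.03), and DHX9, a nuclear RNA and DNA helicase, had 98.2, 96.5 and 96.9 FPKM under BPQD, against 74.0, 72.4 and 81.1 FPKM in control cells (0.36 ± 0.05). None of the 3 helicases overlapped between groups. Of 17 nonsense-mediated decay genes, which remove transcripts with early stop codons, 11 were called higher and 0 lower. The count higher was 7 without BPQD replicate 2, 5 without BPQD replicate 3 or control replicate 2, and 6 without control replicate 3. UPF3B had 26.7, 26.1 and 27.0 FPKM under BPQD, against 18.7, 19.1 and 19.3 FPKM in control cells (0.46 ± 0.03), and the kinase SMG1 had 9.20, 9.02 and 9.15 FPKM under BPQD, against 7.08, 7.19 and 6.99 FPKM in control cells (0.32 ± 0.03). Of 19 snoRNA host genes, whose introns carry small nucleolar RNAs, 7 were called higher and 0 lower; SNHG4 had 24.4, 24.3 and 24.0 FPKM under BPQD, against 18.4, 17.5 and 17.2 FPKM in control cells (0.43 ± 0.03). Of 93 tested snoRNAs and scaRNAs themselves, 9 were called higher and 0 lower. The share called higher, 9.68%, was under the 20.6% of all genes, and 23.4% of all genes were called lower. Their median was 0.03, with 47 positive and 46 negative log2 fold changes, so these RNAs did not share the rise as a class. The count lower reached 3 without control replicate 3, 2 without TiO2 replicate 1 and 1 without any BPQD library.

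**Figure D3:**
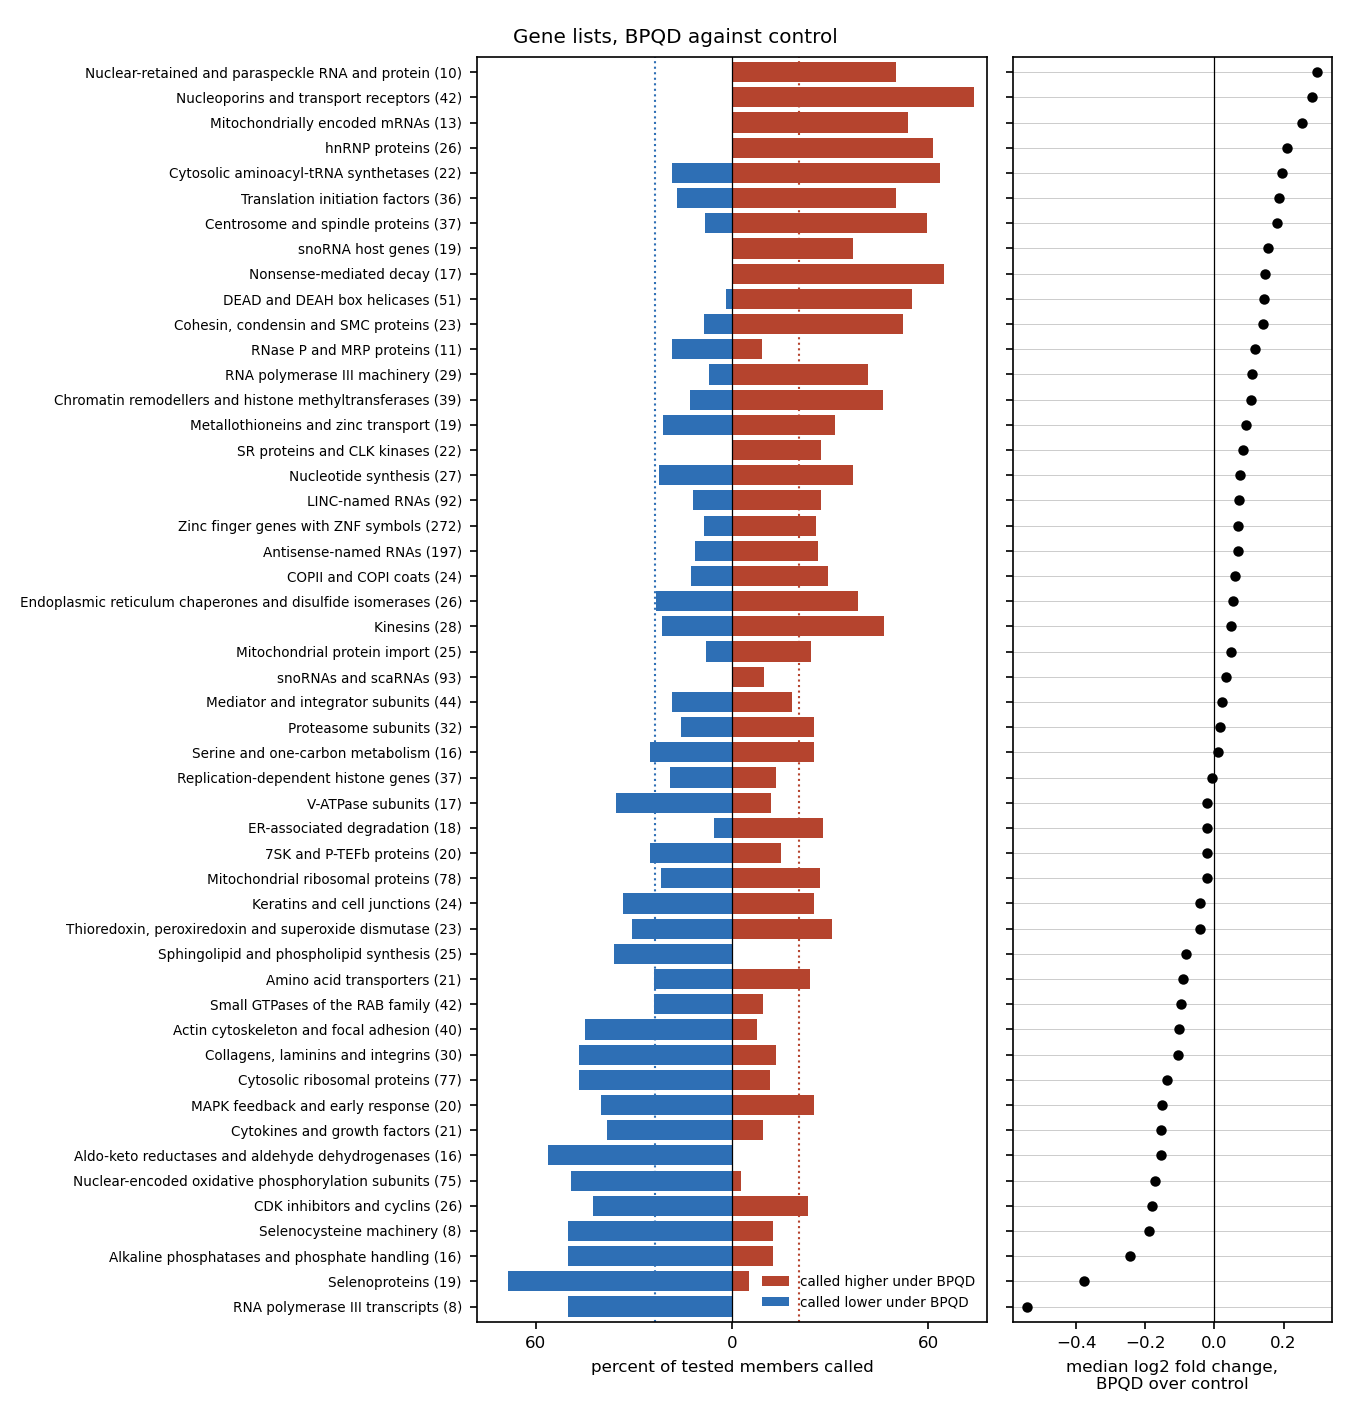
Gene lists with at least 8 tested members, ordered by their median log2 fold change, BPQD over control, which is shown at the right. Bars at the left give the percent of tested members called higher (red, to the right of 0) and lower (blue, to the left), with the number tested in brackets and dotted lines at the shares of all genes, 20.6% and 23.4%; nucleoporins, hnRNP proteins and paraspeckle genes have no member called lower, and RNA polymerase III transcripts and selenoproteins lie at the bottom.

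The deepest falls among called genes with a symbol were in transcripts of RNA polymerase III. RN7SK, the scaffold RNA that holds the elongation kinase P-TEFb inactive, had 3.85, 3.35 and 4.05 FPKM under BPQD, against 38.4, 41.3 and 32.3 FPKM in control cells, and fell by 3.01 ± 0.27. RPPH1, the RNA of ribonuclease P, had 0.557, 0.214 and 0.269 FPKM under BPQD, against 8.94, 8.74 and 8.66 FPKM in control cells, and fell by 2.87 ± 0.12. RMRP, the RNA of ribonuclease MRP, had 1.48, 1.38 and 1.35 FPKM under BPQD, against 10.5, 14.4 and 14.4 FPKM in control cells, and fell by 2.54 ± 0.17. In all 3 RNAs the highest BPQD value was far below the lowest control value. The primate brain cytoplasmic RNA BCYRN1 had 85.5, 117 and 59.3 FPKM under BPQD, against 173, 149 and 146 FPKM in control cells, and fell by 0.88 ± 0.22 (adjusted p = 0.0138). These 4 of the 8 tested transcripts were called, all lower. The signal recognition particle RNAs are made by the same polymerase but were not called. RN7SL1 had 128, 128 and 132 FPKM under BPQD, against 138, 145 and 130 FPKM in control cells, and RN7SL2 had 279, 291 and 285 FPKM under BPQD, against 279, 298 and 291 FPKM in control cells. All 8 tested transcripts had a negative log2 fold change, with a median of -0.54 and the smallest fall at -0.02. Large falls were thus not shared by every transcript of the polymerase.

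The proteins around these RNAs did not share their falls as a class. Of 29 genes of the RNA polymerase III machinery, 12 were called higher and 2 lower, or 1 lower without BPQD replicate 1 or 2 or control replicate 2. The La protein gene SSB, which binds the ends of new polymerase III transcripts, had 37.7, 35.3 and 36.0 FPKM under BPQD, against 25.7, 25.9 and 26.0 FPKM in control cells (0.47 ± 0.04), and BDP1, a TFIIIB subunit, had 8.86, 7.45 and 7.18 FPKM under BPQD, against 5.75, 5.25 and 5.39 FPKM in control cells (0.45 ± 0.09). MAF1, the repressor of the polymerase, had 31.2, 31.6 and 31.0 FPKM under BPQD, against 48.2, 45.3 and 43.5 FPKM in control cells, and fell by 0.53 ± 0.04 (adjusted p = 3.16e-05). SSB and BDP1 were thus high and the repressor low in every BPQD library. Among 20 genes of 7SK and P-TEFb proteins, 3 were called higher and 5 lower. HEXIM1, the inhibitor that works on the 7SK RNA, had 29.8, 28.8 and 30.2 FPKM under BPQD, against 42.0, 42.9 and 41.0 FPKM in control cells (-0.49 ± 0.03). The kinase CDK9 had 13.2, 13.1 and 13.2 FPKM under BPQD, against 18.4, 18.7 and 18.6 FPKM in control cells (-0.46 ± 0.03), and its partner CCNT1 had 12, 11.7 and 11.9 FPKM under BPQD, against 9.30, 9.51 and 8.93 FPKM in control cells (0.33 ± 0.03). The kinase and its cyclin therefore moved in opposite directions. LARP7, which binds the end of the 7SK RNA, averaged 7.83 ± 0.888 FPKM under BPQD and 6.46 ± 1.06 FPKM in control cells and was not called (adjusted p = 0.111).

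The translation apparatus split by function. Initiation factors gave 18 calls higher and 6 lower among 36, with a median of 0.19. EIF1AX, which helps scan for the start codon, had 35.3, 34.8 and 36.7 FPKM under BPQD, against 25.3, 25 and 25.6 FPKM in control cells (0.48 ± 0.03). The EIF3 scaffold gene EIF3A had 94.5, 93.1 and 92.2 FPKM under BPQD, against 69.5, 69.3 and 70.3 FPKM in control cells (0.42 ± 0.02). Aminoacyl-tRNA synthetases and their scaffold genes gave 14 calls higher and 4 lower among 22. AIMP1, a scaffold of the multisynthetase complex, had 18.8, 19.6 and 19.8 FPKM under BPQD, against 12.1, 11.6 and 11.7 FPKM in control cells (0.67 ± 0.04), and EPRS1 had 85.6, 84.7 and 83.4 FPKM under BPQD, against 63.8, 61.8 and 62.1 FPKM in control cells (0.43 ± 0.02). Cytosolic ribosomal protein genes went the other way, with 9 calls higher and 36 lower among 77 and a median of -0.14. RPS9 had 126, 127 and 126 FPKM under BPQD, against 160, 163 and 161 FPKM in control cells (-0.35 ± 0.02), while RPL8 had 550, 841 and 574 FPKM under BPQD, against 931, 1021 and 1028 FPKM in control cells (-0.63 ± 0.15), its second BPQD library lying nearer the control. The split of ribosomal protein calls depends on the scaling, with 18 higher and 21 lower after quantile normalization. Ribosomal protein genes also have many processed copies that can share their reads. Mitochondrial ribosomal proteins gave 21 calls higher and 17 lower among 78, near the background shares, and 26 higher and 12 lower after rescaling to a common total.

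Genes of the centrosome and spindle, of cohesin and condensin and of chromatin remodelling were called higher more often than the 20.6% of all genes. Centrosome and spindle genes gave 22 calls higher and 3 lower among 37, with a median of 0.18 and a median gene span of 84.5 kb. The count lower was 1 after each of the 3 other scalings and without BPQD replicate 1 or 2, control replicate 2 or 3 or TiO2 replicate 1 or 3. KIF20B, a kinesin of cytokinesis, had 19, 19 and 17.7 FPKM under BPQD, against 13.3, 13.5 and 13.5 FPKM in control cells (0.44 ± 0.04), and CDK5RAP2, a centrosome scaffold, had 18, 17.3 and 19.1 FPKM under BPQD, against 13.5, 13.9 and 13.2 FPKM in control cells (0.40 ± 0.04). CEP131, a centriolar satellite gene, fell by 0.43 ± 0.06, with 6.99, 6.27 and 7.46 FPKM under BPQD, against 9.74, 10.0 and 9.24 FPKM in control cells. Of 23 cohesin, condensin and SMC genes, which encode the rings that hold and fold chromosomes, 12 were called higher and 2 lower, with 1 lower after each other scaling and without any library but control replicate 2. SMC3 had 57.4, 58.2 and 56.8 FPKM under BPQD, against 44.3, 45.0 and 45.3 FPKM in control cells (0.35 ± 0.02), and the cohesin loader NIPBL had 22.2, 21.9 and 22.2 FPKM under BPQD, against 18.1, 17.6 and 17.8 FPKM in control cells (0.29 ± 0.02). These differences are small but separate in every library. Of 39 chromatin remodellers and histone methyltransferases, 18 were called higher and 5 lower; INO80 had 10.2, 10.2 and 10.7 FPKM under BPQD, against 7.55, 7.17 and 7.43 FPKM in control cells (0.44 ± 0.03), and SETD2, which trimethylates histone H3 at lysine 36, rose by 0.40 ± 0.07. Of 272 zinc finger genes with ZNF symbols, 70 (25.7%) were called higher and 23 (8.46%) lower, with a median of 0.07. Mediator and integrator subunits gave 8 calls in each direction among 44, or 13 higher and 3 lower after rescaling to a common total. The count higher was 5 without BPQD replicate 1 or 2, and the count lower was 4 or 5 without any BPQD or control library. Replication-dependent histone genes gave 5 higher and 7 lower among 37, or 7 higher and 4 lower after rescaling to a common total, with 3 higher without BPQD replicate 1 and 4 lower without BPQD replicate 2 or control replicate 1. The ZNF genes gave 14 lower after rescaling. As deposited, the share called higher was 18.2% for Mediator and integrator subunits and 13.5% for the histone genes. Both are under the 20.6% of all genes.

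Regulators of the entry into S phase differed in both directions. CDKN1A, the p21 inhibitor of cyclin-dependent kinases, had 14.5, 14.2 and 14.3 FPKM under BPQD, against 24.4, 24.7 and 24.6 FPKM in control cells, and fell by 0.74 ± 0.02 (adjusted p = 2.26e-06). CDKN1C, the p57 inhibitor, had 7.24, 7.82 and 7.65 FPKM under BPQD, against 16.1, 15.4 and 15.5 FPKM in control cells, and fell by 0.96 ± 0.03 (adjusted p = 2.33e-06). CDK6, a kinase of G1 phase, had 17.4, 17.1 and 16.9 FPKM under BPQD, against 11.1, 10.8 and 10.4 FPKM in control cells, and rose by 0.63 ± 0.03 (adjusted p = 6.88e-06). Both inhibitors were low and the kinase high in all 3 BPQD libraries. Cyclin E1 (CCNE1) had 3.86, 3.85 and 4.41 FPKM under BPQD, against 7.47, 8.48 and 6.61 FPKM in control cells (-0.75 ± 0.12). Of 26 CDK inhibitors and cyclins, 6 were called higher and 11 lower. Nucleotide synthesis genes gave 10 calls higher and 6 lower among 27, with the thymidine kinase TK1 at 50.4, 48.6 and 48.5 FPKM under BPQD, against 67.0, 81.2 and 71.3 FPKM in control cells (-0.56 ± 0.06), and the purine synthesis gene PPAT at 6.79, 6.88 and 6.64 FPKM under BPQD, against 3.88, 4.61 and 4.54 FPKM in control cells (0.54 ± 0.10).

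Chaperones of the endoplasmic reticulum rose at the top of their list and not throughout it, with 10 calls higher and 6 lower among 26. HSP90B1 had 241, 236 and 237 FPKM under BPQD, against 161, 161 and 160 FPKM in control cells (0.56 ± 0.05, adjusted p = 0.000118). HSPA5, the BiP chaperone, had 273 FPKM in each of the 3 BPQD libraries, against 200, 197 and 197 FPKM in control cells (0.46 ± 0.01, adjusted p = 2.07e-06). Both were separate from the control by far more than the spread between libraries. The prolyl isomerase FKBP14 fell by 0.34 ± 0.04. ER-associated degradation genes gave 5 calls higher and 1 lower among 18, or 2 lower without BPQD replicate 1 or 3. Proteasome subunits gave 8 higher and 5 lower among 32, or 2 lower after rescaling to a common total and 8 lower without BPQD replicate 3, with PSMD1 at 33.3, 32.1 and 30.6 FPKM under BPQD, against 23.9, 23.6 and 24.2 FPKM in control cells (0.41 ± 0.04). The mitochondrial import receptor TOMM20 had 86.5, 85.9 and 88.5 FPKM under BPQD, against 62.5, 61.5 and 63.0 FPKM in control cells (0.47 ± 0.02), within an import list of 6 higher and 2 lower among 25.

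Selenoproteins, which carry selenocysteine at a recoded stop codon and include the glutathione peroxidases, were lower as a group, with 1 call higher and 13 lower among 19 and a median of -0.38. The count higher was 2 on leaving out control replicate 1, TiO2 replicate 1 or BPQD replicate 2, and 3 after rescaling to a common total. GPX4, which reduces lipid hydroperoxides, had 48.1, 46.5 and 48.6 FPKM under BPQD, against 77.5, 79.4 and 80.9 FPKM in control cells, and fell by 0.72 ± 0.03 (adjusted p = 7.74e-06). SELENOW had 4.03, 4.26 and 3.98 FPKM under BPQD, against 8.97, 8.59 and 8.64 FPKM in control cells (-0.94 ± 0.03), and the plasma peroxidase GPX3 had 1.11, 1.18 and 1.06 FPKM under BPQD, against 2.24, 2.11 and 2.19 FPKM in control cells (-0.59 ± 0.07). These 3 genes had separate groups. GPX1, the cytosolic peroxidase, had 30.0, 28.6 and 44.0 FPKM under BPQD, against 83.8, 80.2 and 79.4 FPKM in control cells (-1.25 ± 0.35, adjusted p = 0.0228). TiO2 libraries scattered in GPX1, at 80.0, 204 and 204 FPKM, and its call was lost without BPQD replicate 1 or 2 or any control library, at -1.26 to -1.14. The thioredoxin reductase TXNRD1 averaged 145 ± 8.13 FPKM under BPQD and 92.4 ± 22.0 FPKM in control cells and was not called (adjusted p = 0.053). Of 8 genes of the selenocysteine machinery, 1 was called higher and 4 lower, with 0 higher when replicate 2 or 3 of either group was left out; the elongation factor EEFSEC had 6.17, 5.60 and 6.55 FPKM under BPQD, against 9.11, 9.28 and 9.62 FPKM in control cells (-0.54 ± 0.05).

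Other redox genes did not move as a block. Thioredoxin, peroxiredoxin and superoxide dismutase genes gave 7 calls in each direction among 23: PRDX5 had 170, 174 and 177 FPKM under BPQD, against 227, 228 and 240 FPKM in control cells (-0.41 ± 0.03), while the sulfiredoxin SRXN1 had 33.6, 33.0 and 32.1 FPKM under BPQD, against 27.0, 27.2 and 26.3 FPKM in control cells (0.29 ± 0.02). SLC7A11, which imports cystine for glutathione synthesis, had 10.8, 11.1 and 10.7 FPKM under BPQD, against 6.60, 6.15 and 6.59 FPKM in control cells (0.67 ± 0.03). The glutamate and cysteine importer SLC1A1 fell by 0.65 ± 0.04, so the cystine importer and this transporter moved apart. Aldo-keto reductases and aldehyde dehydrogenases gave 0 calls higher and 9 lower among 16, with AKR1C3 at 2.30, 2.55 and 2.41 FPKM under BPQD, against 5.02, 5.32 and 4.73 FPKM in control cells (-0.82 ± 0.06). The metal-binding MT2A had 130, 132 and 130 FPKM under BPQD, against 175, 178 and 176 FPKM in control cells (-0.43 ± 0.02), in a list of metallothioneins and zinc transporters with 6 calls higher and 4 lower among 19.

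Nuclear and mitochondrial genes of the respiratory chain moved in opposite directions. Of 75 nuclear-encoded subunits of oxidative phosphorylation, 2 were called higher and 37 lower, with a median of -0.17. COX5B had 81.5, 84.2 and 85.9 FPKM under BPQD, against 112, 113 and 111 FPKM in control cells (-0.41 ± 0.03), and the complex I subunit NDUFB11 had 58.6, 56.6 and 57.5 FPKM under BPQD, against 75.0, 76.4 and 73.6 FPKM in control cells (-0.38 ± 0.02). Of 13 mRNAs encoded in mitochondrial DNA, 7 were called higher and 0 lower, with a median of 0.25. MT-ND4 had 66.3, 64.9 and 66.6 FPKM under BPQD, against 50.3, 50.9 and 53.5 FPKM in control cells (0.35 ± 0.04), and MT-CYB had 19.1, 18.6 and 18.9 FPKM under BPQD, against 14.1, 14.1 and 15.1 FPKM in control cells (0.36 ± 0.06). MT-ND4L had 53.7, 50.1 and 52.7 FPKM under BPQD, against 35.5, 35.9 and 38.8 FPKM in control cells, but it overlaps MT-ND4 and the same molecules can give reads to both. The signs of both medians held after rescaling to a common total, median centring and quantile normalization.

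Genes of the cell surface, junctions and cytoskeleton were called lower more often than the background share. Actin cytoskeleton and focal adhesion genes gave 3 calls higher and 18 lower among 40. MYL9, a myosin light chain, had 44.8, 45.5 and 46.6 FPKM under BPQD, against 63.9, 64.4 and 64.8 FPKM in control cells (-0.49 ± 0.02), and the focal adhesion gene ZYX had 27.9, 27.9 and 29.0 FPKM under BPQD, against 37.2, 38.4 and 38.3 FPKM in control cells (-0.41 ± 0.02). The epithelial keratin KRT18 had 403, 410 and 407 FPKM under BPQD, against 579, 582 and 582 FPKM in control cells (-0.51 ± 0.02), and KRT7 had 214, 206 and 217 FPKM under BPQD, against 292, 288 and 311 FPKM in control cells (-0.48 ± 0.03). Keratin and junction genes as a list gave 6 calls higher and 8 lower among 24. After rescaling to a common total it gave 8 higher and 7 lower, and its median changed sign. The summed epithelial markers given above hold these same keratins. Collagens, laminins and integrins gave 4 calls higher and 14 lower among 30: COL5A1 had 41.4, 42.7 and 42.0 FPKM under BPQD, against 61.7, 61.2 and 63.5 FPKM in control cells (-0.55 ± 0.02), whereas the common integrin beta chain ITGB1 had 86.1, 90.2 and 86.7 FPKM under BPQD, against 63.0, 61.4 and 62.5 FPKM in control cells (0.49 ± 0.06).

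Signalling and trafficking genes gave smaller sets of calls. IL6, an inflammatory cytokine, had 3.14, 2.76 and 2.5 FPKM under BPQD, against 1.08, 1.22 and 1.13 FPKM in control cells, and rose by 0.82 ± 0.07 (adjusted p = 7.9e-05). TGFB1 had 11.2, 11.6 and 11.9 FPKM under BPQD, against 19, 18.3 and 18 FPKM in control cells (-0.63 ± 0.04), and MIF had 189, 190 and 196 FPKM under BPQD, against 249, 250 and 243 FPKM in control cells (-0.37 ± 0.03). IL6 was thus an exception in a list of cytokines and growth factors with 2 calls higher and 8 lower among 21. The AP-1 gene JUNB had 17.4, 17.5 and 17.6 FPKM under BPQD, against 29.5, 28.8 and 30.4 FPKM in control cells (-0.72 ± 0.03), and the early response gene IER3 had 19.2, 20.2 and 21.2 FPKM under BPQD, against 27.7, 29.3 and 30.2 FPKM in control cells (-0.51 ± 0.04), in a list of 5 higher and 8 lower among 20, or 5 higher and 4 lower after rescaling to a common total. Its count higher was 2 or 3 without any BPQD library or control replicate 1 or 3, and its count lower was 4 without control replicate 1 and 5 without control replicate 3. Sphingolipid and phospholipid synthesis genes gave 0 calls higher and 9 lower among 25, or 1 higher and 5 lower after rescaling to a common total. The count lower was also 5 without BPQD replicate 1 or control replicate 1 or 2, and 1 member was called higher without BPQD replicate 3. RAB GTPases gave 4 calls higher and 10 lower among 42, and V-ATPase subunits 2 higher and 6 lower among 17.

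The direction of change varied with the size of the gene and the composition of its promoter. The 10244 protein-coding genes were divided by span into 5 bins of equal number. The shortest bin, at most 10.45 kb, had 10.3% called higher and 37.7% lower, with a median log2 fold change of -0.13. The longest bin, from 89.69 kb, had 27.3% called higher and 17.9% lower, with a median of 0.04. The median increased from each bin to the next. Promoter GC content, known for 8509 genes (83.1%), ran the other way: 25.9% were called higher and 19.6% lower in the lowest of 5 bins, and 14.7% higher and 32.4% lower in the highest. With 3 bins of each, short genes with GC-rich promoters had 7.64% called higher and 41.8% lower, and long genes with GC-poor promoters had 31.6% higher and 14.1% lower. Across genes, which are not independent replicates, Spearman's rho of the log2 fold change was 0.22 with span and -0.15 with promoter GC, while span and promoter GC were nearly unrelated (0.07). The lists did not all follow this division. The nucleoporins were long and called higher and the selenoproteins short, with a median span of 15.3 kb, and called lower. Collagens, laminins and integrins, at 98.1 kb, had 14 of 30 called lower, and hnRNP genes at 21.3 kb and snoRNA hosts at 6.82 kb had 0 called lower. The part of span in the counts of these lists was not tested.

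**Figure D4:**
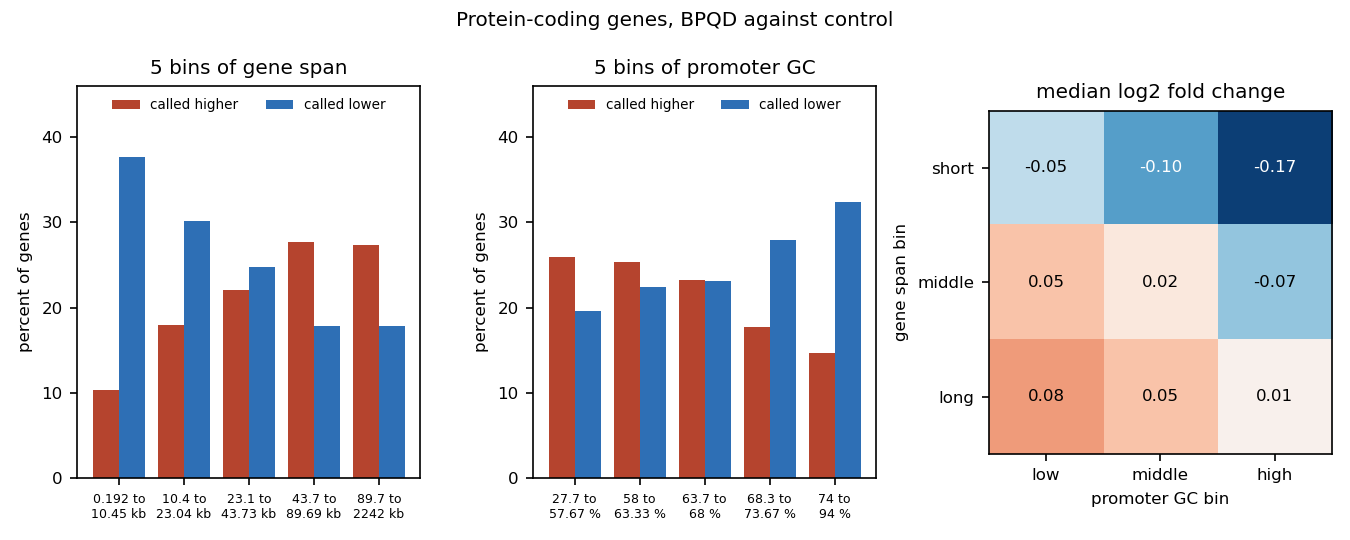
Left and middle, percent of protein-coding genes called higher (red) and lower (blue) under BPQD in 5 bins of gene span (kb) and of promoter GC content (percent). Right, the median log2 fold change, BPQD over control, in 3 bins of span by 3 bins of promoter GC; short genes with high promoter GC have the lowest median and long genes with low promoter GC the highest.

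The balance of calls also differed between chromosomes. On chromosome 19, 8.39% of 691 protein-coding genes were called higher and 43.8% lower, with a median of -0.16. Chromosome 22 had 8.03% higher and 38.2% lower among 249, and chromosome 20 had 14.7% higher and 37.9% lower among 293. At the other end, chromosome 13 had 35.7% higher and 11.9% lower among 168, and chromosome 18 had 23.5% higher and 8.09% lower among 136. Long noncoding RNAs had 27.8% called higher and 11% lower among 435, with a median of 0.09, and pseudogenes 12.2% higher and 15.2% lower among 460.

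**Figure D5:**
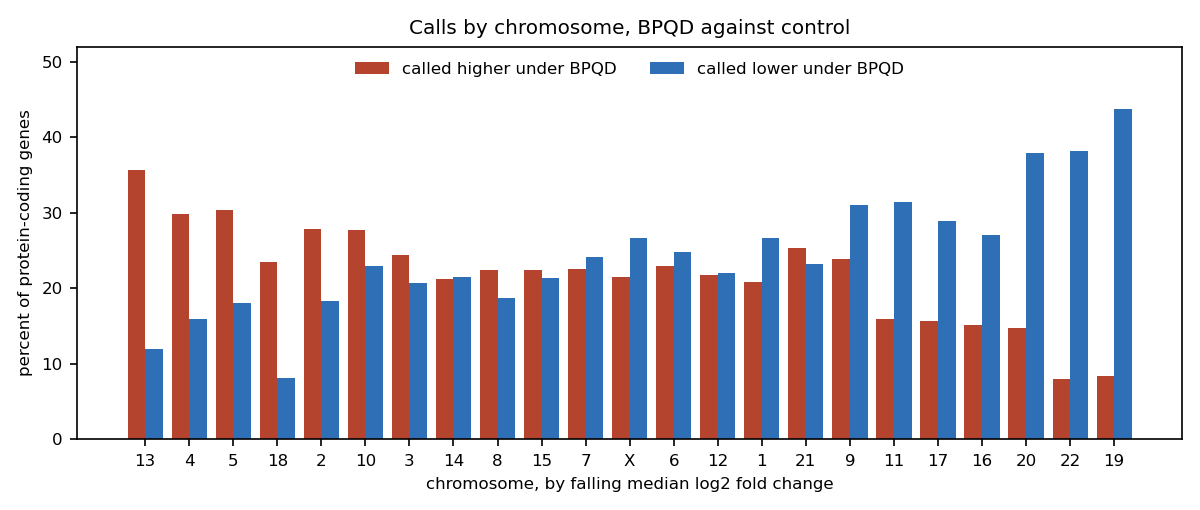
Percent of protein-coding genes called higher (red) and lower (blue) under BPQD on each chromosome, ordered by falling median log2 fold change. Chromosome 13 stands at the left with 35.7% higher and chromosome 19 at the right with 43.8% lower.

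BPQD libraries were also set against those of TiO2, whose dose by mass was higher, so that the exposures are compared as given. In this test 19% of genes were called higher under BPQD and 18.6% lower. Several lists of nuclear RNA genes were again called higher more often than the 19% of all genes. Of the nucleoporins and transport receptors, 24 of 42 were called higher and 0 lower. For the hnRNP genes it was 17 of 26 with 0 lower, and for the helicases 26 of 51 with 3 lower. The SR proteins and CLK kinases were not, with 4 higher and 1 lower among 22 and a median of 0.05. SFPQ had 91.2, 90.9 and 91.9 FPKM under BPQD, against 54.3, 54.8 and 54.0 FPKM under TiO2, and CHML had 39.7, 39.8 and 39.7 FPKM under BPQD, against 18.2, 18.4 and 18.4 FPKM under TiO2. The GPX4 level was also lower than under TiO2, at 72.5, 68.8 and 74.4 FPKM there, and 0 of 19 selenoproteins were called higher and 11 lower. The groups of these 3 genes do not overlap, but the share of all genes without overlap was not computed for this comparison. SFPQ and CHML were also picked for a small p in it, so their separation is no further support.

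Other groups did not separate the materials in the same way. RN7SK had 9.71, 3.74 and 7.51 FPKM and RMRP 1.59, 1.33 and 2.53 FPKM under TiO2; neither was called between the materials, with log2 differences of BPQD over TiO2 of -0.67 and -0.21. Of the 8 tested polymerase III transcripts, 3 were called higher under BPQD than under TiO2 and 1 lower. RN7SL1 had 108, 107 and 112 FPKM, RN7SL2 240, 241 and 237 FPKM and BCYRN1 44.4, 55.3 and 49.8 FPKM under TiO2, and these 3 were higher under BPQD (0.24, 0.25 and 0.75). RPPH1 had 0.915, 0.842 and 0.480 FPKM under TiO2 and was lower under BPQD (-0.37, adjusted p = 0.0431). Endoplasmic reticulum chaperones HSPA5 and HSP90B1 had 281, 282 and 277 FPKM and 219, 253 and 220 FPKM under TiO2, and were not called either (-0.04 and 0.05). Their list as a whole gave 0 calls higher and 7 lower among 26 against TiO2. Cytosolic ribosomal proteins gave 9 calls higher and 10 lower against TiO2. The median log2 difference of BPQD over TiO2 was -0.019 for protein-coding genes on chromosome 19 and -0.0007 on chromosome 13. It was -0.054 in the shortest span bin and -0.02 in the highest promoter GC bin. Each of these was smaller in size than against control, so these divisions are not read as particular to BPQD. The median of long noncoding RNAs, 0.14, was larger than against control. Among the genes with the smallest p between the materials were several that stood high under TiO2. The folate receptor FOLR1 had 666, 682 and 675 FPKM under BPQD, against 1504, 1474 and 1518 FPKM under TiO2, with 883, 874 and 869 FPKM in control cells. The cholesterol synthesis gene ACAT2 had 11.2, 11 and 11.5 FPKM under BPQD, against 38.8, 38.7 and 38.6 FPKM under TiO2, and the lysosomal protease CTSL had 75.3, 76.4 and 77.0 FPKM under BPQD, against 164, 167 and 167 FPKM under TiO2. These comparisons reuse the same BPQD libraries.

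The authors' deposited table of m6A peaks for BPQD against control gives a second readout on the same genes. In the authors' deposited table, 48.5% of genes called higher in input RNA, 45.5% of those called lower and 41% of those not called had a peak with p under 0.05. The next medians cover genes with any listed peak. The median log2 fold change of the peak with the smallest p was 0.14 in genes called higher, -0.15 in genes called lower and 0.16 in genes not called, in the authors' deposited table. Genes with a peak with p under 0.05 in the authors' deposited table numbered 1225, 1300 and 2807 in the same order. In 59.3%, 42.8% and 60.6% of these, the peak with the smallest p was higher under BPQD, also in the authors' deposited table. The peak values use the same input libraries as the expression fit, so these values are given without a test.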

How the data were processed

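The authors deposited an expression table with FPKM per gene for the 9 input libraries, per the file headers. The submitters' processing notes name StringTie 1.3.0 and HISAT2 without saying what each did, the version of HISAT2 being not given in the sources used here. They list the build mm10, although the gene IDs are human. Of 27167 symbols compared with RefSeq GRCh38.p14, 99.9% lay on the same chromosome and 94.4% started within 10 kb, so coordinates are read as GRCh38. Libraries were grouped by their titles. Strandedness of counting was not given, so overlapping genes are treated as uncertain.

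Group means were fitted with limma 3.58.1 in R 4.3.3 to log2(FPKM + 1) over 9 libraries and 12224 genes, with a variance trend, two-sided Benjamini-Hochberg adjusted p under 0.05 over all genes and no replicate block. BPQD against control is the main contrast and BPQD against TiO2 the second. The members and the 51 gene lists were chosen with earlier results of these data known. Genes were named by these rules: the 12 largest rises and falls with at least 10 FPKM in the higher group and no overlap between groups, the 8 largest rises and falls in FPKM, up to 4 called members per list and others needed to account for it, the 6 largest noncoding changes each way, and up to 6 genes each way between the materials. A few that meet the rule are not described. Gene classes, spans and promoters came from the table and RefSeq; promoter GC was matched by symbol. The fit was tested on simulated data.

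The authors also deposited a peak table; its columns of log2 fold change for m6A and of p-value are read per the file headers, and 12 FPKM columns of the peak tables were not used. Alternatives were other pseudocounts, filters, scalings, variance models, a replicate block and leaving out each library. Tables were made with pandas 2.3.3, numpy 2.4.6 and scipy 1.17.1 in Python 3.11.15, and drawn with matplotlib 3.10.9.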

Additional observations from a re-analysis of the deposited data

How the results depend on the processing

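The counts of calls for BPQD against control were 2524 higher and 2860 lower. Testing only genes of at least 10 FPKM, which leaves fewer genes, gave 1127 higher and 1156 lower, and for BPQD against TiO2 it gave 899 higher and 967 lower, against 2323 and 2273 in the full test. Leaving out each library in turn gave 2191 to 2468 higher and 2473 to 2811 lower against control, and 1978 to 2252 higher and 1940 to 2210 lower against TiO2. Rescaling each library to a common total gave 3164 higher and 2263 lower (58.3% higher), against 46.9% higher as deposited, 52.7% with median centring and 51.9% with quantile normalization, and moved the median of all genes to 0.0382 from -0.0125. The other filters, pseudocounts and variance models kept both counts within 1.5 times. With the replicate number as a block, 2352 genes were called higher and 2644 lower against control, and 2100 higher and 2050 lower against TiO2. Libraries that share a number did not deviate together, with correlations of -0.0442, 0.00544 and -0.0369 between BPQD and control, so the numbers are not read as pairs. Of 237 named genes called against control, 205 were called in every alternative in which they were tested, 32 lost the call in at least 1 and 0 changed sign. Of 2040 list counts compared, 183 moved by over 1.5 times. JUND, RBM14 and SNHG1 each lost the call in 11 alternatives. Depth is unknown, so what it limits cannot be stated.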
